A study of Mus musculus with 36 samples.

Results

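The 39 genes described here are Myc and 38 genes whose products make ribosomes, out of 40354 genes in the count tables. They were taken by name from the count tables and from the log2 tables, and all 39 passed the filter on low counts, as did 17277 genes in all. Ribosome biogenesis takes place mostly in the nucleolus. RNA polymerase I transcribes a long precursor of the ribosomal RNAs, small nucleolar ribonucleoproteins (snoRNPs) modify it, and many assembly factors fold, cut and export what become the small 40S and the large 60S subunits. Myc is a transcription factor known for driving this programme in growing cells, with its partner Max at the E-box CACGTG, and pre-B cells that divide in IL-7 make ribosomes fast.

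The libraries are polyA RNA-seq of a B cell to macrophage transdifferentiation (BMT). Primary mouse B cells isolated from bone marrow were infected with a retrovirus that carries C/EBPα fused to the estrogen receptor (ER) and the surface marker hCD4, and hCD4+ cells were plated in IL-7 on inactivated wild-type MEFs, fibroblasts that serve as feeders. Estradiol (E2) moves the fusion protein into the nucleus. The construct carried wild-type C/EBPα (WT), or C/EBPα with arginine 35 replaced by alanine (R35A) or by lysine (R35K), and each was sampled at 0, 1, 3, 6, 18 and 120 hours post induction (hpi) in 2 replicates, which gives 18 groups and 36 libraries.
All groups, those at 0 hpi included, carry the retroviral fusion protein, were selected for hCD4 and had been in contact with feeders. Feeder removal by differential adherence is described in the study, but transcripts of feeder fibroblast markers were still present in the libraries, as given below. Per the study's methods, the induction medium also held IL-3, FLT-3, CSF-1 and SCF beside IL-7 and was later renewed without IL-7. No library was kept for the same time without E2, so induction, medium and time in culture cannot be told apart in any change from 0 hpi. The labels number the replicates without saying whether they came from separate mice or cultures, and p-values measure the spread between these libraries.

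Total counts were 13044456 to 23131776 per library, with a median of 15471229.5. Levels are given as CPM, the count of a gene relative to its library's total after TMM scaling. Cebpa, whose reads can come from the construct or from the endogenous gene, lay between 34.9 and 150.0 CPM. The label of B cells was checked against 10 B cell markers, whose summed level was 3760 to 4120 CPM in the 6 libraries at 0 hpi and 130.0 to 197 CPM at 120 hpi, when Rag2 was at 0 in both WT libraries. The summed level of 10 macrophage markers was 863 to 906 CPM at 0 hpi and 33200 to 48700 CPM at 120 hpi. Fewer cells of a type and less RNA per cell cannot be told apart in such bulk libraries, and the part of a changing cell mixture in the results on single genes was not tested.

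At 0 hpi the members spanned a wide range of levels. Per kilobase of coding length, Ncl, a major nucleolar protein that binds the ribosomal RNA precursor, stood first with 849 ± 19.0 CPM (SD, n = 6 libraries). Npm1, a nucleolar chaperone of ribosome assembly, followed with 624 ± 15.3 CPM per coding kilobase. Both stood above at least 99.3% of all genes tested on this scale. Nop58, a core protein of the box C/D snoRNPs, was at 169 CPM per coding kilobase. Myc itself ranked 30 of the 39 with 26.4 ± 1.70 CPM per coding kilobase, and the lowest member was Polr1b, the second largest subunit of RNA polymerase I, with 12.7. None of the 39 members differed between constructs at 0 hpi in edgeR's quasi-likelihood test, either for R35A against WT or for R35K against WT, where a call needs a 1.5-fold difference and a p of 0.05 or less after Benjamini-Hochberg adjustment. At an unadjusted p under 0.05 and no fold threshold, 7 members differed for R35A and 1 for R35K, and DESeq2 called 0 in both. By the 1.5-fold and adjusted call the background was 0% of 17277 genes in both comparisons. At an unadjusted p under 0.05 it was 1624 genes for R35A and 1010 for R35K.

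Promoter sequences were looked up because the members move together and because a match to CACGTG is the classical mark of a Myc target. RefSeq windows of 300 bases, 250 before and 50 after the start, were at hand for 33 of the 39 members in GRCm38.p6. CACGTG, which reads the same on both strands, was in 6 of the 33, against 1319 of the 11848 tested genes with a window (11.1%) and 8.09% of all 27025 genes with one. The 6 were Nop2, Utp18, Pes1, Wdr43, Tsr1 and Utp20, with the first base of the match from 60 bases before to 37 bases after the start. The variant CACGCG was in 24.2% of the members and 18.6% of tested genes, and another E-box, CAGCTG, in 15.2% of the members and 18.3% of all genes with a window. The C/EBP motif TTGCNNAA, or TTNNGCAA on the other strand, was in 2 members, Rrp1b and Nolc1 (6.06%), and in 10.4% of tested genes. Each motif was searched on its own, so that matches of different motifs may overlap. A match is a description and not a binding site. The 4 windows shown hold the 250 bases before the start, all on the plus strand: Nop2 as the member with the match farthest upstream, Dkc1 and Nop56 as the members with the largest falls at 1 hpi in WT and R35K, which hold no CACGTG, and the second start of Rrp1b, 1 of the 2 members other than Myc that were higher at 120 hpi. Capitals mark CACGTG in Nop2 and TTNNGCAA in Rrp1b.
Nop2, chr6:125131633-125131882: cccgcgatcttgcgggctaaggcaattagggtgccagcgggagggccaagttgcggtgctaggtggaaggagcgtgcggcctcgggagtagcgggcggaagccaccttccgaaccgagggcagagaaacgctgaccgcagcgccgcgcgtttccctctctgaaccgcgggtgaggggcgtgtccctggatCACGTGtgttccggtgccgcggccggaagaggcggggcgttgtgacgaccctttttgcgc
Dkc1, chrX:75095604-75095853: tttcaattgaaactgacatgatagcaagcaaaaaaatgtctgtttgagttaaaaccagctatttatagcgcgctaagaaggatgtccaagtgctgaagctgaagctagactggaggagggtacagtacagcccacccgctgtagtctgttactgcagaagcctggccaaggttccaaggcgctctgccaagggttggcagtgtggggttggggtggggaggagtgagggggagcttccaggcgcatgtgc
Nop56, chr2:130274162-130274411: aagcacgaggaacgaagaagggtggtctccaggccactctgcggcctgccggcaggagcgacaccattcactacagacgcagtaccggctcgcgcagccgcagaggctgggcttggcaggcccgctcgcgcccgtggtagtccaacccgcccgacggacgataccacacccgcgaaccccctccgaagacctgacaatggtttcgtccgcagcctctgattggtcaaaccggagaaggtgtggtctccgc
Rrp1b, chr17:32048035-32048284: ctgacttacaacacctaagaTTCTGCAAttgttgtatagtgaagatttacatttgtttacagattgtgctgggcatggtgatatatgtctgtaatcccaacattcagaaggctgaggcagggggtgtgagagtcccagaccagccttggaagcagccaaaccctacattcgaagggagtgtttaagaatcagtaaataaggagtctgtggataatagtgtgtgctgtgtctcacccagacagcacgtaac

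Myc (chr15:61985391-61990374, plus strand, mm10) was higher at every later time than at 0 hpi in all 3 constructs, while most of the ribosome biogenesis members were lower. In WT cells Myc stood at 33.7 and 34.0 CPM at 0 hpi. The 2 replicates were at 48.8 and 46.5 CPM at 1 hpi, then 43.2 and 44.4, and 42.0 and 42.3, at the next times, and 48.5 and 51.7 at 18 hpi. They reached 138 and 140.0 CPM at 120 hpi. No library at 0 hpi overlapped a later one, but the steps up to 18 hpi stayed under 1.5-fold. The log2 changes were 0.49, 0.37, 0.31 and 0.57 from 1 to 18 hpi, and the largest adjusted p of edgeR's quasi-likelihood test among them was 8.38e-06. At 120 hpi Myc rose in WT cells by a log2 fold change of 2.04 ± 0.0531 (SE), or 4.10-fold (adjusted p = 9.61e-39). The change at 18 hpi sits at the threshold and was called with DESeq2's size factors (0.69), DESeq2's own test (0.69), limma on the deposited values (0.68) and without WT replicate 1 of 18 hpi (0.61).

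The mutants reached a Myc level at 1 hpi that they then held. R35A cells went from 36.8 and 40.0 CPM to 64.1 and 67.1 at 1 hpi, then 68.4 and 68.0, 71.7 and 73.2, and 63.5 and 67.8 at 3, 6 and 18 hpi, and 69.7 and 63.9 at the end. R35K cells went from 34.7 and 36.1 CPM to 73.6 and 69.1 at 1 hpi, then 69.9 and 69.8, 65.6 and 66.4, and 66.8 and 65.8 at the following times, and 75.8 and 74.7 at the end. In both mutants every later library lay above both libraries at 0 hpi, and the later libraries spanned 63.5 to 73.2 CPM in R35A and 65.6 to 75.8 CPM in R35K. Myc rose at all 5 times in R35A, with log2 fold changes of 0.77, 0.83, 0.91, 0.77 and 0.79 (edgeR, adjusted p of 3.16e-19 or less). It also rose at all 5 times in R35K, by 1.01, 0.98, 0.90, 0.90 and 1.09 (adjusted p of 1.23e-21 or less). With library totals alone as the scale, the R35A change at 120 hpi was 0.34 and was not called. From 18 to 120 hpi the log2 change was 1.47 in WT, 0.02 in R35A and 0.18 in R35K, and the sign of the R35A value depends on the scaling.

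**Figure D1:**
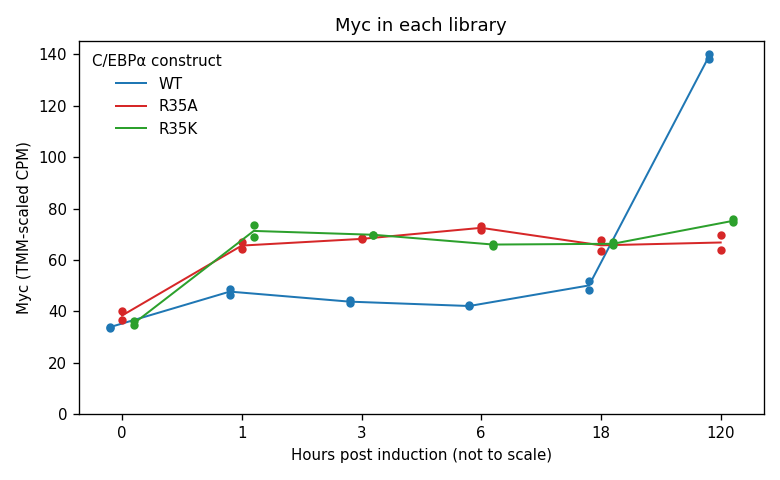
Myc level (TMM-scaled CPM, vertical axis) in each of the 36 libraries by time after induction (horizontal axis), for WT, R35A and R35K. Points are single libraries and lines join the means of the 2 replicates. WT stays between 42.0 and 51.7 CPM from 1 to 18 hpi and reaches 138 and 140.0 at 120 hpi, while both mutants lie between 63.5 and 75.8 CPM at every later time.

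The difference between constructs was tested as an interaction, the change from 0 hpi in a mutant minus the change in WT. The contrasts of the 2 mutants share the WT libraries. For R35A, Myc rose more than in WT at 6 hpi, with a difference of 0.60 ± 0.0794 on the log2 scale (edgeR's quasi-likelihood test, Benjamini-Hochberg adjusted p = 1.36e-08), and was the 1 member called against a background of 10.1% of all genes. Leaving out R35A replicate 1 of 0 hpi gave 0.54 and R35A replicate 2 of 6 hpi gave 0.58, both short of the fold threshold. At 120 hpi the difference was −1.24 ± 0.0775 (adjusted p = 8.97e-20), lower in R35A. For R35K, the difference was 0.61 ± 0.0796 at 3 hpi (adjusted p = 9.09e-09), the 1 member called against a background of 10.0%. It was 0.56 with library totals alone, 0.58 without the low-count filter and 0.58 without R35K replicate 1 of 0 hpi, and then not called. At 120 hpi it was −0.95 ± 0.0778 (adjusted p = 6.91e-15), again the 1 member called, against 10.1%. Between the mutants, the R35K change exceeded that of R35A by 0.24 at 1 hpi (adjusted p = 0.0155) and by 0.29 at 120 hpi (adjusted p = 0.00755), both under the fold threshold.

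The partners and relatives of Myc form a list of 12 genes. In WT cells 1 rose and 1 fell at 1 hpi, 1 rose and 3 fell at 18 hpi, and 3 rose and 3 fell at 120 hpi. Neither the 8.33% in each direction at 1 hpi nor the 3 of 12 at 120 hpi exceed the shares of all genes, of which 10.0% were called higher and 9.72% lower at 1 hpi and 25.2% and 36.5% at 120 hpi. At 18 hpi 23.7% of all genes were called higher and 23.0% lower. Max, the obligate partner, was at 81.6 and 80.7 CPM at 0 hpi and 102 in both WT libraries at 120 hpi, a log2 change of 0.33 that was not called. Mxd1, which competes with Myc for Max, was at 29.2 and 31.6 CPM at 0 hpi and 236 in both libraries at 120 hpi in WT. It rose at 120 hpi by 2.96 in WT, 2.29 in R35A and 2.46 in R35K on the log2 scale. Mlx, a relative of Max that also binds Mxd1, rose by 1.29, 1.37 and 1.31 at that time. Mnt, another Max-binding repressor, rose by 0.88 in WT at 120 hpi and by 0.59 in R35A at 1 hpi. Its mean level at 120 hpi was 177 CPM in WT, 96.7 in R35A and 111 in R35K. At 0 hpi these means were 96.2, 96 and 96.7 CPM. Mxi1 rose by 0.61 in WT at 1 hpi. The paralogue Mycn, active in B cell precursors, was at 2.61 and 3.92 CPM at 0 hpi in WT and at 0 and 0.0956 CPM at 120 hpi, and was called lower at 120 hpi in all 3 constructs. Mycl, at 1.71 and 1.99 CPM at 0 hpi in WT, was at 3.95 and 2.78 CPM at 18 hpi. In R35A it went from 2.01 and 1.92 CPM to 3.57 and 3.9 at 1 hpi. Against 0 hpi it fell by 3.28 in WT at 120 hpi. Mxd3 fell by 3.00 in WT at 18 hpi, and Mlxip fell by 0.66 there. Mga, Mxd4 and Zbtb17 were called in none of the 15 comparisons with 0 hpi.

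Across the 39 members the change from 0 hpi was mostly downward, present at 1 hpi and larger at 120 hpi. In WT, 9, 8, 8, 15 and 23 of the 39 fell from 1 to 120 hpi. The share of all 17277 genes called lower was 9.72%, 11.3%, 14.2%, 23.0% and 36.5% at these times. So 23.1% of the members fell at 1 hpi beside 9.72% of all genes, and 59.0% at 120 hpi beside 36.5%. No member rose in WT before 120 hpi, against 10.0%, 12.0%, 15.5% and 23.7% of all genes called higher, and 3 rose at 120 hpi, against 25.2%. In R35A, 7 members were called at 1 hpi in either direction, or 17.9% of the 39 against 37.1% of all genes. Of the 7 members, 6 fell, and 3140 of the 17277 genes were called lower. At the next times 6, 8, 16 and 22 members fell in R35A, against 18.0%, 18.5%, 21.0% and 35.3%. In R35K, 10, 10, 11, 16 and 30 fell from 1 to 120 hpi, against 15.4%, 15.1%, 15.6%, 19.2% and 35.5%. Up to 6 hpi the members' share called lower in R35A was thus near the background or below it, and in R35K and WT it was above. Myc was the 1 member called higher before 120 hpi in the mutants. The background of genes called higher was 18.9%, 18.7%, 18.9% and 21.5% in R35A and 16.4%, 16.7%, 17.6% and 19.3% in R35K. At 120 hpi 3 members rose in each mutant, against 26.5% in R35A and 26.7% in R35K.

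The sizes of the changes show the downward shift more evenly than the calls. The median log2 change of the 39 members in WT was −0.34, −0.30, −0.34, −0.38 and −0.69 from 1 to 120 hpi, while that of all genes was −0.04, −0.01, 0.00, 0.02 and −0.23. In R35A the members' medians were −0.22, −0.24, −0.23, −0.39 and −0.64, beside 0.01, 0.02, 0.03, 0.03 and −0.18 for all genes. In R35K they were −0.42, −0.38, −0.38, −0.43 and −0.88, beside 0.00, 0.02, 0.02, 0.05 and −0.20. At 1 hpi 38 of 39 members had a negative log2 change in WT, 33 in R35A and 37 in R35K, called or not. Scaling moved these medians at 2 times: with library totals alone the median of all genes at 120 hpi was −0.68, −0.64 and −0.64 in WT, R35A and R35K and that of the members −1.14, −1.1 and −1.32. With DESeq2's size factors the medians in WT at 18 hpi were 0.15 for all genes and −0.25 for the members, of which 10 fell and Myc rose.

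**Figure D2:**
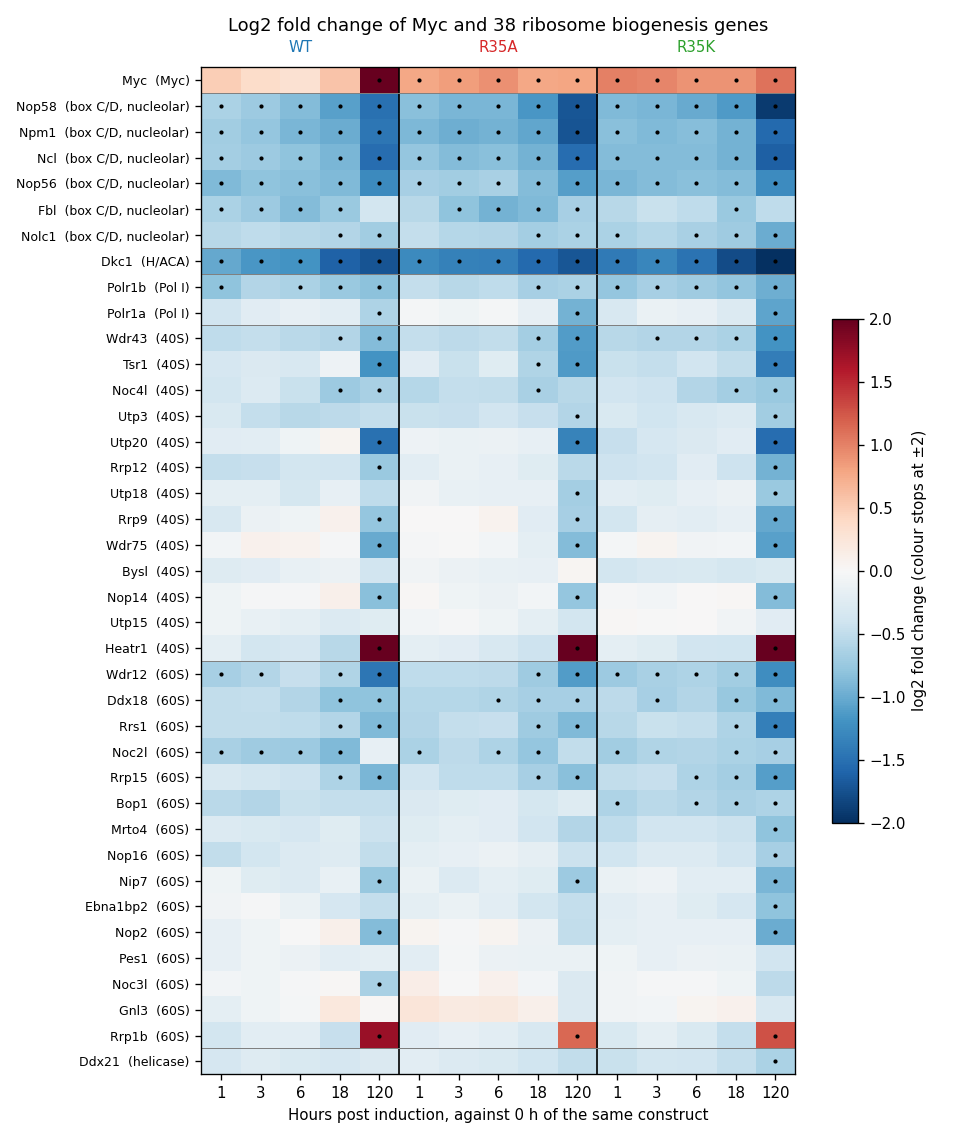
Log2 fold change from 0 hpi of the 39 members (rows) in the 15 comparisons (columns, 3 constructs by 5 times), with blue for lower and red for higher, the colour scale ending at −2 and 2, and dots on called values. Dkc1, Ncl, Npm1, Nop56 and Nop58 are dotted in all 15 columns, and Heatr1 and Rrp1b turn red at 120 hpi in each construct.

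Among the members, 5 genes of snoRNPs and nucleolar proteins were called lower in all 15 comparisons: Dkc1, Ncl, Npm1, Nop56 and Nop58. The comparisons within a construct share its libraries at 0 hpi. The share of all genes called lower in all 15 is not given here. Dkc1 (chrX:75095854-75109777), the pseudouridine synthase of the H/ACA snoRNPs, was at 110.0 and 114 CPM at 0 hpi in WT. It stood at 54.6 and 54.9 CPM at 1 hpi, and 34.6 and 37.9 CPM at 18 hpi were followed by 33.2 and 34.9 CPM. The replicates of 0 hpi lay above all later libraries. The log2 changes in WT were −1.03 ± 0.0522 (SE) at 1 hpi and −1.72 ± 0.0605 at 120 hpi, and edgeR's largest adjusted p for Dkc1 over the 15 comparisons was 3.03e-24. In R35A cells Dkc1 went from 105 CPM in both replicates to 43.3 and 43.8 at 1 hpi, a log2 change of −1.27, and in R35K cells from 117 and 118 CPM to 45.8 and 41.9, a change of −1.42. It was the member with the largest fall in all 15 comparisons but R35A at 120 hpi, where Npm1 fell by 1.73 and Dkc1 by 1.71.

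Among the 6 box C/D snoRNP and nucleolar phosphoprotein genes, 5 fell in WT at each of 1, 3, 6 and 120 hpi and all 6 at 18 hpi. Of all genes, 9.72%, 11.3%, 14.2%, 23.0% and 36.5% were called lower in WT from 1 to 120 hpi. Ncl (chr1:86344719-86359400, minus strand) was at 1810 and 1860 CPM at 0 hpi in WT and 1140 in both libraries at 1 hpi. It was then at 969 and 965 CPM at 18 hpi and at 636 and 640.0 at the last time. No library overlapped one of an earlier of these times. Its log2 change was −0.68 ± 0.0279 at 1 hpi and −1.52 ± 0.0287 at 120 hpi in WT, with an adjusted p of 2.60e-28 at 1 hpi (edgeR). Npm1 went from 544 and 550.0 CPM at 0 hpi to 337 in both WT libraries at 1 hpi and 192 and 211 at 120 hpi. Nop56 (chr2:130274430-130279313), whose promoter is printed above, went from 149 and 148 CPM to 79.7 and 81.3 at 1 hpi, and then stayed between 80.4 and 87.3 CPM up to 18 hpi, with 61.7 and 61.2 at 120 hpi. Nop58, its partner in the same particle, went from 271 and 279 CPM through 179 and 174 at 1 hpi and 129 and 130.0 at 18 hpi to 97.2 in both libraries at 120 hpi. The log2 change of Nop56 was −0.89 at 1 hpi and −0.88 at 18 hpi, and that of Nop58 −0.64 and −1.09.
Fbl, the box C/D methyltransferase, had uneven replicates at 0 hpi in WT, 32.6 and 22.7 CPM. It fell by 0.64 to 0.87 on the log2 scale from 1 to 18 hpi in WT, but was at 21.2 and 21.9 CPM at 120 hpi, a change of −0.36 that was not called. Nolc1, which chaperones snoRNPs, went from 171 and 174 CPM to 103 and 111 at 120 hpi in WT and fell at 18 and 120 hpi (−0.59 and −0.69). Counting used single 50-base reads, and reads that Npm1 shares with its processed pseudogenes may be missing from its level.

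**Figure D3:**
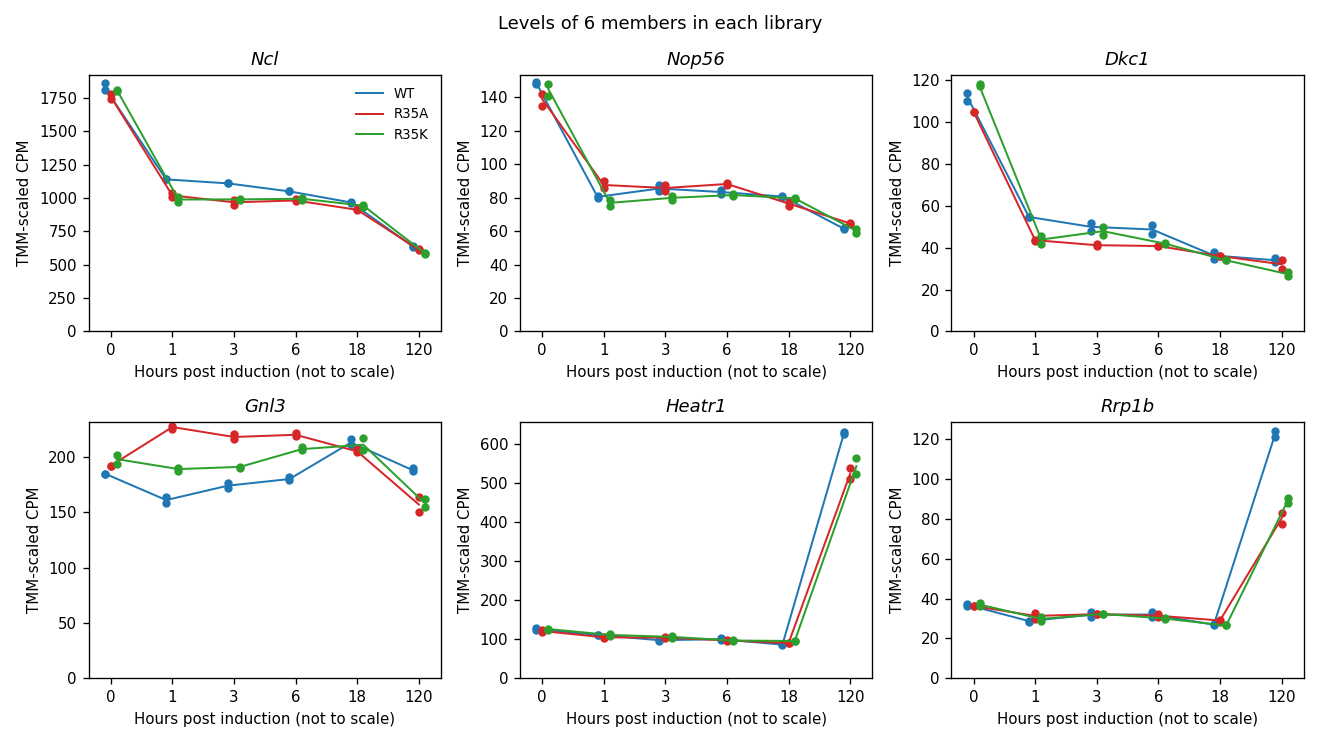
Levels (TMM-scaled CPM, vertical axes) of Ncl, Nop56, Dkc1, Gnl3, Heatr1 and Rrp1b in each library by time after induction (horizontal axes), 1 panel per gene, with a colour per construct, points for libraries and lines through the means of 2 replicates. Ncl, Nop56 and Dkc1 drop between 0 and 1 hpi in each construct, Gnl3 stays between 150.0 and 228 CPM, and Heatr1 and Rrp1b jump between 18 and 120 hpi.

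Much of what was seen at 18 hpi was already there at 1 hpi. Over the ribosome biogenesis members called lower at 18 hpi, the log2 change at 1 hpi was a median of 73.8% of that at 18 hpi in WT (15 members, 51.2% to 112%), 75.0% in R35A (16 members, 36.1% to 87.5%) and 87.6% in R35K (16 members, 57.3% to 109%). Summed over the 38 members other than Myc, the level in WT was 5789 and 5909 CPM before induction and 4145 and 4127 CPM an hour later. It was 3889 and 3888 CPM at 18 hpi and 3635 and 3665 CPM at 120 hpi. In R35A the sum went from 5737 and 5670 CPM to 4069 and 4130 at 1 hpi and 3268 and 3385 at 120 hpi. In R35K it went from 5785 and 5820 CPM to 3880 and 3799 at 1 hpi and 3105 and 3158 at 120 hpi. The sums at 0 hpi lay above all later sums, and Ncl alone makes up a large part of each.

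Other markers moved over the same hour. Of 12 proliferation markers, 8 fell in WT at 1 hpi and all 12 in both mutants, and all 12 fell at 18 and 120 hpi in each construct. Among all genes at 1 hpi, 9.72% were called lower in WT and 15.4% in R35K, and 37.1% in either direction in R35A. The shares called lower were 19.2% to 23.0% at 18 hpi and 35.3% to 36.5% at 120 hpi. Their summed level in WT was 3710 to 3810 CPM at 0 hpi, then 2280 to 2290, 422 to 437 and 973 to 1000 at 1, 18 and 120 hpi. In R35A it was 3520 CPM at 0 hpi and 795 to 799 at 1 hpi, and in R35K 3690 to 3720 and 1270 to 1300.0. At 1 hpi the proliferation sum was thus lowest in R35A and highest in WT, with no overlap. The members' sum at 1 hpi was lowest in R35K, at 3880 and 3799 CPM. It overlapped between WT (4145 and 4127 CPM) and R35A (4069 and 4130 CPM).
Of 12 feeder fibroblast markers, 11 rose in WT at 1 hpi and 11 at 18 hpi, and in R35A 10 rose at both times. The shares of all genes called higher at these times were 10.0% and 23.7% in WT and 18.9% and 21.5% in R35A. Without Fn1 and Thbs1, which macrophages also make, the summed level of the other 10 in WT was 2580 to 2660, 4830 to 4860, 6360 to 6490 and 215 to 248 CPM at 0, 1, 18 and 120 hpi. In R35A this sum was 2770 to 2820 CPM, 5010 to 5030, 4420 and 751 to 764 at these times, and in R35K 2640 to 2760, 3870 to 4000.0, 3400 to 3440 and 544 to 636. Lum was at 0 in every library at 120 hpi. Leaving out those 2 genes was chosen after seeing the data. The sum of the 10 was above its level at 0 hpi at 1 and 18 hpi and below it at 120 hpi, in each construct. Its part and that of the proliferation markers in the members' changes was not tested. Of 10 granulocyte markers, 0 rose and 8 fell in WT at 1 hpi, against 10.0% and 9.72% of all genes. Their summed level was at most 62.5 CPM in any library.

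**Figure D4:**
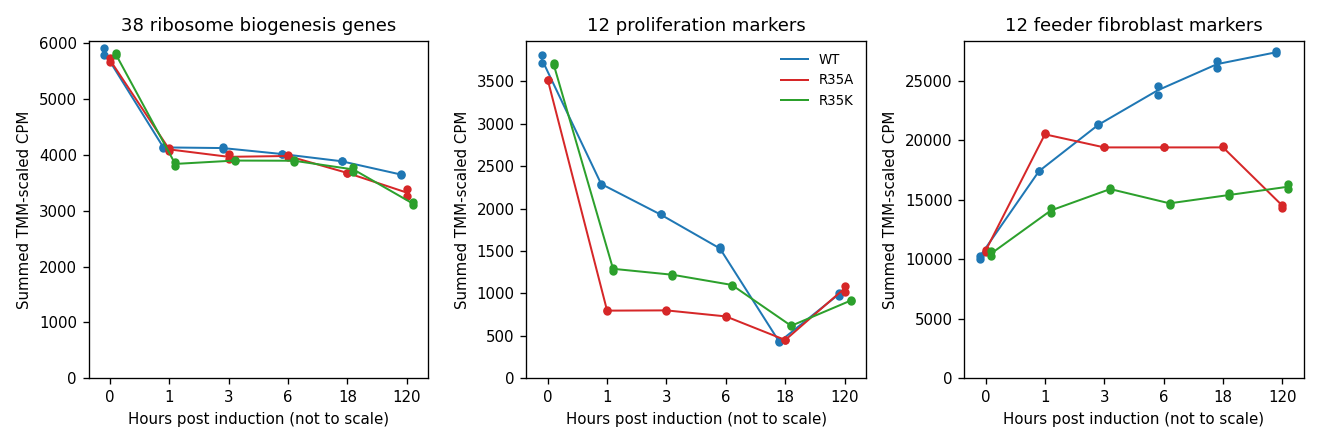
Summed level (TMM-scaled CPM, vertical axes) of the 38 ribosome biogenesis members, of 12 proliferation markers and of 12 feeder fibroblast markers (1 panel each) in each library by time after induction (horizontal axes), with a colour per construct, points for libraries and lines through the means of 2 replicates. The members' sum drops from at least 5670 CPM at 0 hpi to at most 4145 at 1 hpi, the proliferation sum is lowest at 18 hpi, and the feeder sum, with Fn1 and Thbs1 included, lies above its level at 0 hpi at all later times.

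RNA polymerase I is represented by 2 members. Polr1b went from 43.8 and 41.4 CPM at 0 hpi to 23.7 and 25.1 at 1 hpi in WT, and 24.1 in both libraries at 120 hpi. It fell in 11 of the 15 comparisons, in WT by 0.80 ± 0.0712 on the log2 scale at 1 hpi (edgeR, adjusted p = 1.61e-14). Polr1a, the largest subunit, fell at 120 hpi, by 0.62 in WT, 0.95 in R35A and 1.05 in R35K, and was called at no earlier time. In WT it was at 106 and 107 CPM at 0 hpi and at 71.9 and 67.1 at 120 hpi.

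The 13 genes of the small subunit (SSU) processome and the 40S subunit were mostly called late. In WT 0 of the 13 were called at 1, 3 or 6 hpi, 2 fell at 18 hpi, and 8 fell and 1 rose at 120 hpi. In R35A 0 were called up to 6 hpi, and 3 fell at 18 hpi, and in R35K 0, 1, 1 and 2 fell from 1 to 18 hpi. These shares were below those of all genes called lower up to 6 hpi in each construct, as were the 15.4% in WT and R35K at 18 hpi, beside 23.0% and 19.2%. At 120 hpi 8 fell in R35A and 10 in R35K, with 1 higher in each, so that 61.5%, 61.5% and 76.9% of the 13 were lower in WT, R35A and R35K, against 36.5%, 35.3% and 35.5% of all genes. Their median log2 change in WT was −0.26, −0.17 and −0.74 at 1, 18 and 120 hpi. Utp20, a large scaffold protein of pre-ribosomes, shows this timing: it was at 216 and 215 CPM at 0 hpi in WT, 186 and 184 at 1 hpi, 220.0 and 230.0 at 18 hpi, but only 75.1 and 76.9 in the 120 hpi libraries. These lay far below all others, and Utp20 fell there by 1.5 ± 0.0421 (adjusted p = 3.24e-37), by 1.33 in R35A and by 1.52 in R35K. Tsr1, a GTPase-like 40S assembly factor, fell by 1.19, 1.13 and 1.38 at 120 hpi in WT, R35A and R35K. Srr, on the opposite strand, overlaps 32.3% of its exon bases and was at no more than 13.9 CPM at 0 and 120 hpi. Wdr75, a subunit of the UTP-A complex, fell by 1.01, 0.86 and 1.08 there, and its partner Wdr43 by 0.87, 1.12 and 1.19. Rrp9, the U3 snoRNP protein, fell by 0.78, 0.67 and 1.03, and Nop14 by 0.84, 0.77 and 0.87. Utp15 and Bysl were called in none of the 15 comparisons.

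Heatr1 (chr13:12395027-12440289), the human homologue of which is the SSU processome protein UTP10, went the other way at 120 hpi. It was at 124 and 128 CPM at 0 hpi in WT and declined to 87.5 and 84.9 at 18 hpi, a log2 change of −0.55 under the fold threshold. At 120 hpi it was at 626 and 630.0 CPM. In R35A it went from 90.6 and 89.6 CPM at 18 hpi to 510.0 and 539, and in R35K from 95.4 in both libraries to 523 and 563. The 6 libraries at 120 hpi lay far above the other 30. Heatr1 rose from 0 to 120 hpi by 2.32 ± 0.0383 in WT, 2.12 ± 0.0379 in R35A and 2.11 ± 0.0378 in R35K (edgeR, adjusted p of 1.09e-46 or less). Lgals8, a galectin gene on the opposite strand that overlaps 2.0% of its exon bases, was at 73.8 and 73.3 CPM at 0 hpi and 226 and 227 at 120 hpi in WT. The libraries were made with a stranded kit, but which strand was counted is not given in the sources used here, and the part of Lgals8 in the rise was not tested.

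The 15 genes of 60S assembly were mixed. In WT 2, 2, 1, 5 and 7 fell from 1 to 120 hpi, and 1 rose at the last time. In R35A 1, 0, 2, 5 and 5 fell at these times, and in R35K 3, 3, 3, 6 and 11. In WT these are 13.3%, 13.3%, 6.67%, 33.3% and 46.7% of the 15, against 9.72%, 11.3%, 14.2%, 23.0% and 36.5% of all genes called lower. In R35A the share was below the background up to 6 hpi and was 33.3% at both later times, against 21.0% and 35.3%. In R35K it was 20.0% up to 6 hpi, then 40.0% and 73.3%, against 15.1% to 15.6%, 19.2% and 35.5%. Wdr12, of the complex with Pes1 and Bop1, went from 51.9 and 51.5 CPM at 0 hpi to 33.2 and 31.6 at 1 hpi and 19.0 ± 1.11 (SD, n = 2) at 120 hpi in WT, and fell by 1.45, 1.12 and 1.24 at 120 hpi in WT, R35A and R35K. Of its partners, Bop1 was called lower in R35K at 4 of the 5 times, by 0.59 to 0.65. In WT its log2 changes were −0.44 to −0.58 with an adjusted p of 1.8e-11 or less (edgeR), under the fold threshold, and no R35K minus WT difference was called for it. Pes1 was called nowhere, with log2 changes from −0.38 to −0.04. Rrs1 fell by 0.88, 0.89 and 1.37 at 120 hpi and Rrp15 by 0.92, 0.84 and 1.1. Nip7 fell by 0.76, 0.73 and 0.92 there. Nop2, the 28S methyltransferase gene with the CACGTG match printed above, was between 71.4 and 90.1 CPM up to 18 hpi in WT and at 43.4 and 45.7 at 120 hpi. It fell there by 0.86 in WT and 1.00 in R35K, and its change of −0.50 in R35A was not called.
Noc2l dipped and came back in WT: 172 and 184 CPM at 0 hpi, 114 and 113 at 1 hpi, 98.2 and 93.4 at 18 hpi, and 160.0 and 158 in the last libraries. It rose again from 18 to 120 hpi by 0.73 (adjusted p = 4.97e-23), and was not called against 0 hpi at 120 hpi in WT (−0.16) or R35A (−0.50), while it fell in R35K (−0.67). Samd11, whose exons overlap 20.9% of those of Noc2l on the other strand, was at 0.343 and 0.427 CPM at 0 hpi and 8.58 and 10.1 at 120 hpi in WT.
Gnl3 (nucleostemin) was called nowhere. It was at 185 CPM in both WT libraries at 0 hpi, 164 and 158 at 1 hpi and 211 and 216 at 18 hpi. In R35A it went from 192 in both to 228 and 225 at 1 hpi and 150.0 and 164 at 120 hpi. The change at 1 hpi was 0.44 ± 0.0531 higher in R35A than in WT (adjusted p = 7.35e-10), below the fold threshold.

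Rrp1b (chr17:32036100-32062865), a nucleolar protein of 60S assembly, was the other member that rose late. In WT it was at 36.4 and 37.4 CPM at 0 hpi, 27.3 and 26.5 at 18 hpi and 124 and 121 at 120 hpi. In R35A it reached 77.5 and 83.2 CPM at 120 hpi from 36.4 and 36.3 at 0 hpi, and in R35K 88.0 and 90.3 from 37.8 and 36.2. WT libraries at 120 hpi lay above those of both mutants, which lay above all libraries of earlier times. It rose by 1.73 ± 0.0554 in WT, 1.15 ± 0.0562 in R35A and 1.27 ± 0.0556 in R35K (edgeR, adjusted p of 8.67e-26 or less). The rise was smaller in R35A than in WT by 0.59 ± 0.0800 (adjusted p = 2.24e-08), so that Myc and Rrp1b were the 2 members called in that interaction, against a background of 14.2%. This call sits at the fold threshold: the difference was −0.53 without the low-count filter, −0.58 with only WT and R35A in the fit, −0.57 without replicate 1 of WT at 0 or at 120 hpi, −0.58 without R35A replicate 1 of 0 hpi and −0.53 without that of 120 hpi. For R35K it was −0.47 (adjusted p = 5.27e-06), under the threshold. Hsf2bp overlaps 0.7% of the exon bases of Rrp1b.

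Ddx21, an RNA helicase of pre-rRNA transcription and processing, was called in R35K at 120 hpi, where it fell by 0.63, from 322 and 330.0 CPM to 206 and 215. In R35A it went from 320.0 and 326 CPM to 225 and 235, a log2 change of −0.49, and in WT from 329 in both libraries to 268 and 269, a change of −0.29, both under the fold threshold. At that time the R35K change differed from that of WT by −0.34 (edgeR, adjusted p = 1.43e-07) and from that of R35A by −0.14 (adjusted p = 0.052), neither of which was called.

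Few other members passed the test of a difference between constructs, which does not show that the constructs act alike. For R35A against WT, 0 members were called at 1, 3 or 18 hpi, against 13.9%, 12.7% and 8.32% of all genes, and DESeq2 called 0 as well. At an unadjusted p under 0.05 without a fold threshold the counts were 19, 14 and 9, beside 6993, 6541 and 5301 of all 17277 genes. For R35K against WT, 0 were called at 1, 6 or 18 hpi, against 11.9%, 12.2% and 13.3%, and DESeq2 called 0. An unadjusted p under 0.05 was reached by 9, 12 and 15 members and by 6320, 6514 and 6649 of all genes. Between R35K and R35A, 0 members were called at any time, against 5.83%, 3.02%, 5.89%, 3.44% and 1.61% from 1 to 120 hpi, and DESeq2 called 0. There 21, 9, 9, 6 and 26 members had an unadjusted p under 0.05, beside 5372, 4252, 5383, 4358 and 4061 of all genes. Without the fold threshold, 18 members were lower in R35K than in WT by their change to 120 hpi and 0 were higher, against 24.6% of all genes called in either direction, the largest after Myc being Noc2l (−0.51, adjusted p = 1.35e-10), Rrs1 (−0.49, adjusted p = 0.000497) and Rrp1b. For R35A at that time 10 were lower and 7 higher, against 32.6%, among the latter Bysl (0.42, adjusted p = 0.00275), Nop2 (0.36, adjusted p = 0.000592) and Noc3l (0.36, adjusted p = 0.00252).

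**Figure D5:**
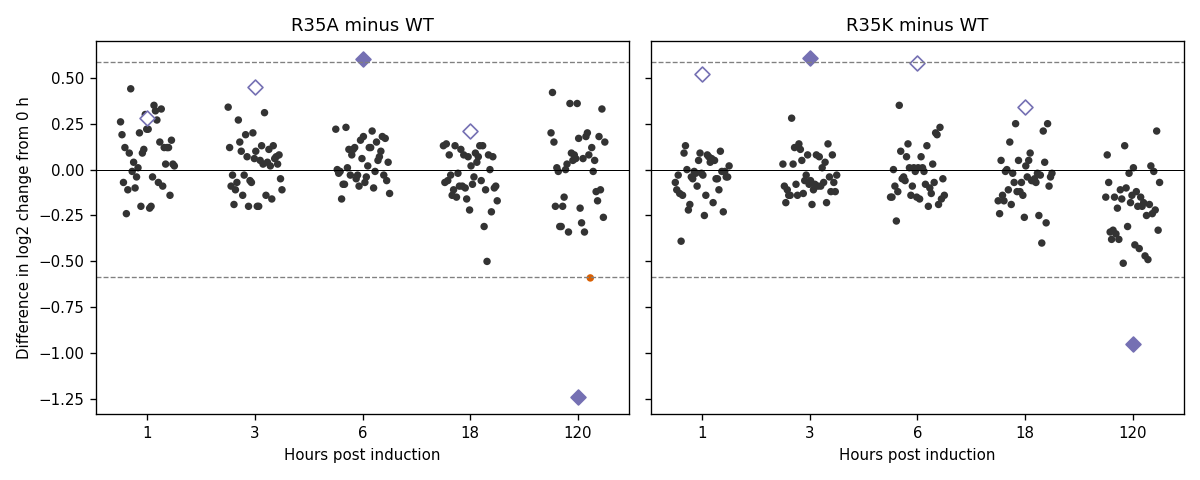
Difference in log2 change from 0 hpi between R35A and WT (1 panel) and between R35K and WT (the other), on the vertical axis, by time after induction. Diamonds are Myc, filled where called, dots are the other 38 members, with Rrp1b in orange where called, and dashed lines mark 1.5-fold. Most members lie within the dashed lines at every time, and Myc is above 0 up to 18 hpi and at −1.24 and −0.95 at 120 hpi.

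From 18 to 120 hpi the members split. In WT 10 fell and 4 rose, against 60.5% of all genes called in either direction. Utp20 fell by 1.57, Tsr1 by 1.09 and Wdr75 by 0.98, while Heatr1 rose by 2.87, Rrp1b by 2.19, Myc by 1.47 and Noc2l by 0.73. In R35A 5 fell and 2 rose (background 53.8%), and in R35K 13 fell and 2 rose (52.7%). Heatr1 and Rrp1b rose in both, by 2.54 and 1.47 in R35A and by 2.51 and 1.75 in R35K.

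Likeness to Myc was described by Pearson's correlation with its log2 CPM over the 18 group means, which come from the same 3 time courses and are not independent points. The coefficient was negative for 35 of the 38 other members, with a median of −0.632. Negative values were common among all tested genes too: 46.6% lay below −0.272, the value of Noc2l. Below −0.625, the value of Nip7 and near the members' median, lay 17.5%. The highest of the 38 were Rrp1b (0.511), Heatr1 (0.503), Gnl3 (0.113), Noc2l (−0.272) and Utp15 (−0.388), and the lowest Wdr12 (−0.846), Ncl (−0.813), Rrp15 (−0.802), Nop56 (−0.783) and Ddx18 (−0.781). Over the 15 groups before 120 hpi, for which the share of all genes is not given, the coefficient was negative for 37 of the 38, with a median of −0.672. Rrp1b was then at −0.602 and Heatr1 at −0.563, and Gnl3, at 0.531, was the 1 positive member. The genes of all tested that were most like Myc over the 18 groups were Vps37b (0.971), Tatdn2 (0.960), Tusc1 (0.959), Rabgef1 (0.953) and Kctd6 (0.952).
The 6 members with CACGTG in their promoter had median log2 changes of −0.20, −0.14 and −0.86 at 1, 18 and 120 hpi in WT. The 27 with a window and no match had medians of −0.33, −0.46 and −0.65. Of the 6, 0, 1 and 4 fell at these times, and of the 27, 7, 11 and 16 fell. The shares of all genes called lower were 9.72%, 23.0% and 36.5%.

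A second list of 112 ribosome biogenesis genes, none of them a member, was fitted in the same test. In WT 7, 7, 15, 31 and 45 of them fell from 1 to 120 hpi and 0 rose. In R35A 16, 19, 15, 29 and 49 fell and 0, 1, 0, 1 and 0 rose. In R35K 14, 17, 17, 25 and 57 fell and 0, 0, 0, 1 and 0 rose. In WT the shares called lower were 6.25%, 6.25%, 13.4%, 27.7% and 40.2%, against 9.72%, 11.3%, 14.2%, 23.0% and 36.5% of all genes, so the list was below the background up to 6 hpi and near it later. In R35A it was at 14.3%, where 3140 of the 17277 genes fell, and then at 17.0%, 13.4%, 25.9% and 43.8%, against 18.0%, 18.5%, 21.0% and 35.3%. In R35K it was at 12.5%, 15.2%, 15.2%, 22.3% and 50.9%, against 15.4%, 15.1%, 15.6%, 19.2% and 35.5%. By role, 2, 7 and 6 of the 11 other snoRNP genes fell at 1, 18 and 120 hpi in WT, among them Gar1 (−1.36 at 18 hpi and −1.67 at 120 hpi), a partner of Dkc1 in the H/ACA particle, and Snu13 (−1.26 at 18 hpi). Of 13 exosome genes 3, 8 and 8 fell at these times in WT, with Exosc3 (−1.59) and Exosc8 (−1.37) the largest at 18 hpi and Exosc2 (−1.61) and Dis3 (−1.54) at 120 hpi. Of 13 genes of the RNA polymerase I machinery 2, 4 and 4 fell, led by Taf1b (−1.17) and Znrd1 (−1.0) at 18 hpi and Polr1e (−1.5) and Taf1a (−1.14) at 120 hpi. Of 37 SSU genes 0, 4 and 10 fell, led by Emg1 (−1.20) and Nol11 (−0.70) at 18 hpi, and of 38 genes of 60S assembly 0, 8 and 17, led by Rpf1 (−0.93) and Nle1 (−0.83) at 18 hpi and Las1l (−1.62) and Brix1 (−1.40) at 120 hpi. In R35A at 1 hpi the largest falls were Exosc3 (−1.08), Exosc8 (−1.04) and Gar1 (−0.90).

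Members of a list of 28 Myc targets outside the ribosome also mostly fell where they were called. In WT 10, 10, 13, 12 and 20 fell and 1, 1, 1, 1 and 2 rose from 1 to 120 hpi, and in R35A 11, 11, 11, 12 and 15 fell and 2, 1, 1, 1 and 3 rose. In R35K 15, 14, 14, 14 and 18 fell and 1, 1, 1, 1 and 3 rose. The shares called lower in WT were 35.7%, 35.7%, 46.4%, 42.9% and 71.4%, against 9.72%, 11.3%, 14.2%, 23.0% and 36.5% of all genes. They were 39.3% to 53.6% in R35A, against at most 35.3%, and 50.0% to 64.3% in R35K, against at most 35.5%. The shares called higher, 3.57% up to 18 hpi and 7.14% at 120 hpi in WT, were below the 10.0% to 25.2% of all genes. The list was set up with earlier results of these data known. Shmt1 and Shmt2, enzymes of serine and one-carbon metabolism, fell by 2.26 and 1.75 in WT at 18 hpi, and Tfrc, the transferrin receptor, fell by 2.08. Cad, an enzyme of pyrimidine synthesis, fell by 2.30 in WT at 120 hpi. Hk2, a hexokinase, rose by 1.31 in WT at 18 hpi, by 2.01 at 120 hpi and by 1.57 in R35A at 1 hpi, and Eif4a1, a translation initiation helicase, rose by 1.29 in WT at 120 hpi.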

How the data were processed

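RNA-seq libraries (36, from 18 construct and time groups with 2 replicates each) were analysed from the deposited tables. The authors prepared TruSeq Stranded mRNA libraries, sequenced single 50-base reads, checked them with FastQC, aligned them with STAR 2.5.0a to mm10 and counted reads per gene with STAR's GeneCounts, which keeps uniquely aligned reads. The annotation release and the strand column are not given in the sources used here. The deposited counts are whole numbers per gene for 40354 genes, not normalized. The deposited log2 values, for 19067 genes, are the authors' DESeq2 1.14.1 normalized values: log2 of the count over a size factor plus 1 gave 100% of them. R35K has tables of its own. All columns were used (0 were not), and 0 rows named no gene.

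Counts of all 36 libraries were fitted together over 18 groups with edgeR 4.0.16 in R 4.3.3 (filterByExpr, TMM, quasi-likelihood F test, two-sided), with Benjamini-Hochberg adjustment over 17277 genes. Calls needed 1.5-fold and an adjusted p of at most 0.05. The common biological coefficient of variation was 3.27%, TMM factors were 0.789 to 1.09, and the variance between replicates was 1.09 to 2.55 times counting noise. The pipeline was tested on simulated data. Alternatives were DESeq2 1.42.0, limma 3.58.1 on the deposited log2 values, other scalings, filters and thresholds, fewer constructs in the fit, a replicate block, and each library left out. For likeness to Myc, 0.5 was added to CPM before the log2. Coordinates and coding lengths come from GENCODE vM21, which holds 97.07% of the symbols (39171 of 40354).

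The members, the gene lists and the tests were chosen with earlier results of these data known. Named were Myc in every library, the members with the 3 largest changes in each direction per comparison with 0 hpi and per R35A minus WT difference, those called against the majority, 1 to 4 examples per role, all genes of the Myc network, the 2 largest changes per role in the other lists, and the 5 highest and lowest in likeness to Myc. Further members were named after their values were seen. Riok2 and Exosc6 were not analysed here, nor were promoters of Myc, Rrp12, Npm1, Rrs1, Bop1 and Fbl.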

Additional observations from a re-analysis of the deposited data

Results flagged for a closer look

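Myc and Rrp1b passed the interaction test, which compares the change since 0 hpi of 2 constructs. For Myc the R35A minus WT difference was 0.60 on the log2 scale at 6 hpi (edgeR's quasi-likelihood test, adjusted p = 1.36e-08) and −1.24 at 120 hpi (adjusted p = 8.97e-20). The R35K minus WT difference for Myc was 0.61 at 3 hpi (adjusted p = 9.09e-09) and −0.95 at 120 hpi (adjusted p = 6.91e-15). For Rrp1b the R35A minus WT difference was −0.59 at 120 hpi (adjusted p = 2.24e-08). The groups hold 2 libraries each, so no group was tested for a library that stands apart.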

How the results depend on the processing

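Of 539 counts of members called under an alternative, 462 stayed within 1.5 times the reported count and 77 moved. Of 3903 log2 changes of single members, 3608 kept their direction and their side of the threshold, 263 lost a call, 20 gained one and 12 changed sign. The cause of these changes was not tested beyond what each setting does by construction. At 2-fold, the members called from 1 to 120 hpi were 1, 1, 1, 3 and 12 in WT, 1, 1, 1, 3 and 11 in R35A and 2, 1, 2, 2 and 18 in R35K. The R35A minus WT difference then held 0 at 6 hpi and 1 at 120 hpi, R35K minus WT 0 at 3 and 120 hpi, and the change from 18 to 120 hpi 5 in WT, 3 in R35A and 4 in R35K. With no fold threshold, 33, 32, 32 and 31 were called from 1 to 18 hpi in WT, 31, 30, 31, 37 and 38 from 1 to 120 hpi in R35A, and 33, 33, 34 and 34 from 1 to 18 hpi in R35K. The differences then held 14, 9, 6, 4 and 17 for R35A minus WT, 6, 3, 8, 9 and 18 for R35K minus WT and 14, 5, 6, 2 and 15 for R35K minus R35A, and the change from 18 to 120 hpi 30, 30 and 33. Many of all 17277 genes pass without a fold threshold. By the looser rule of an unadjusted p under 0.05, 9479 to 12526 did from 1 to 18 hpi in WT. In R35A 11651 to 14109 did from 1 to 120 hpi, and in R35K 11034 to 11913 from 1 to 18 hpi. Shares of all genes under the other settings are not given here. Library totals alone gave 11 in R35A at 1 hpi, 13 at 3 hpi, 0 for R35K minus WT at 3 hpi, and 24, 21 and 29 from 18 to 120 hpi in WT, R35A and R35K. Without the low-count filter the counts were 1 for R35A minus WT at 120 hpi, 0 for R35K minus WT at 3 hpi and 12 for R35A from 18 to 120 hpi. With only WT and R35A in the fit, R35A minus WT held 1 at 120 hpi.

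Leaving out 1 library at a time gave 8 to 9, 7 to 10, 8 to 9, 13 to 14 and 26 to 29 members in WT from 1 to 120 hpi. It gave 8 to 9, 7 to 11, 8 to 10, 16 to 17 and 24 to 28 in R35A, the 11 without R35A replicate 1 of 3 hpi, and 10 to 13, 10 to 13, 12 to 13, 16 to 17 and 32 to 34 in R35K. From 18 to 120 hpi it gave 14 to 15 in WT, 7 to 11 in R35A (11 without R35A replicate 1 of 120 hpi) and 14 to 17 in R35K. R35A minus WT held 0 to 1 at 6 and 18 hpi and 1 to 2 at 120 hpi, and R35K minus WT 0 to 1 at 3 and 6 hpi and 1 to 2 at 120 hpi.

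Alternatives were run for Myc in every comparison and for the other members where they were called, and among these values the sign changed for Myc in values near 0. Small changes that were not called, such as those of Bop1 and Pes1 from 18 to 120 hpi, were not recomputed. From 18 to 120 hpi in R35A (0.02) it was −0.03 with DESeq2's size factors or its own test, −0.34 with library totals, −0.11 without the filter, −0.05 with fewer constructs, −0.04 by limma, −0.03 without replicate 1 of 18 hpi and −0.11 without replicate 1 of 120 hpi, with −0.11 to 0.07 over the libraries left out. In R35K (0.18) it was −0.16 with library totals. The R35K minus R35A difference at 6 hpi was 0.04 without R35A replicate 1 of 0 hpi, 0.00 without R35A replicate 2 of 6 hpi and 0.02 without R35K replicate 2 of 0 hpi, with −0.08 to 0.04 over the libraries left out.

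The labels do not say whether the replicate numbers pair the samples. Over 153 pairs of groups and 9765 genes the correlation of replicate deviations had a median of −0.007 (−0.508 to 0.33), with 17 pairs above 0.1. A median near 0 shows no pairing common to all groups and cannot exclude it in some. With the replicate block the counts of members called were the same in every comparison, such as 9 in WT at 1 hpi and 26 at 120 hpi. limma was not run for comparisons of R35K with another construct, as the R35K log2 values come in a separate table. With 2 replicates a group, small differences between constructs may not be detectable, and Fbl and Ddx18, the members with the fewest counts, are the least precise.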
